A study of Mus musculus with 6 samples.

Results

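The genes examined were 40 listed genes of the endoplasmic reticulum (ER): chaperones, disulfide isomerases, genes of ER-associated degradation (ERAD), and sensors and targets of the unfolded protein response. They were listed by gene name and function, with earlier results of these data known, and they made up 40 of 35450 genes quantified and 40 of 16679 genes tested. The list was divided into 21 folding genes, 10 ERAD genes and 9 stress sensors and targets. Their levels came from poly(A) RNA sequencing of the vomeronasal organ, a pheromone-sensing organ in the floor of the nasal cavity, in 3 wild-type mice (Cnpy1+/+) and 3 littermates homozygous for a knockout allele (Cnpy1-/-), all aged 60 days. Each genotype had 2 males (mice 1 and 3 among wild types, mice 1 and 2 among knockouts) and 1 female. One library held the RNA of both organs of 1 mouse, so all cell types of the organ were mixed. How the knockout allele was made, and whether it acts in all cells, is not given in the sources used here. The Canopy proteins, to which the Cnpy1 product belongs, reside in the ER, and the comparison asked how its loss changes gene expression in the organ.

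Proteins of the secretory pathway, pheromone receptors among them, fold in the ER with help from Hsp70- and Hsp90-type chaperones, from lectin chaperones that bind glucose-trimmed glycans, and from disulfide isomerases. Proteins that do not fold are moved to the cytosol by ERAD and degraded. When unfolded proteins build up, the sensors IRE1, PERK and ATF6 raise transcription of chaperone and ERAD genes, and PERK through ATF4 raises genes such as Ddit3, Trib3 and Chac1. Vomeronasal sensory neurons of the basal class carry V2R receptors and those of the apical class V1R receptors, and Calr4, a relative of calreticulin, has been linked to the surface transport of V2R receptors.

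Many of these genes share a promoter element, the ER stress response element (ERSE), through which ATF6 acts. It was searched as CCAAT, any 9 bases and CCACG, on both strands, in the 250 bases before each RefSeq gene start (GRCm38.p6). An entry was found for 36 members (none for Hyou1, Manf, Derl1 and Atf6). ERSE occurred in 10 of the 36 (27.8%), against 35 of 27025 genes with an entry (0.130%). The 10 were Hspa5, Hsp90b1 (with 2 matches), Dnajc3, Creld2, Calr, Calr4, Canx, Pdia6, Syvn1 and Derl3. The related ERSE-II (ATTGG, any 1 base, CCACG) occurred in Herpud1 only (10 of 27025 genes, 0.0370%), and an ATF4-type site (TGATGCAA) in Herpud1 and Chac1 (248 genes, 0.918%). The letters TGACGTGG, an ATF6 site, were in 0 of 36 member promoters and in 0.603% of genes. These are matches of letters and were not tested for binding. The 6 stretches that follow are those of the members the values turn on, printed 5′ to 3′ on the gene's strand with the match in capitals. Of these 6, Calr, Calr4 and Derl3 show ERSE in the opposite orientation (CGTGG first). The ATF4-type sites of Herpud1 and Chac1 are also in the opposite orientation and so read TTGCATCA.
Hspa5, chr2:34771995-34772073, plus strand: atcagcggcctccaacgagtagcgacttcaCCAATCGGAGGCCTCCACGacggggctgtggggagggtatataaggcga
Calr, chr8:84847045-84847123, minus strand: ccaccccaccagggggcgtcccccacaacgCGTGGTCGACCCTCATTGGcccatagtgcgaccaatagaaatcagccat
Calr4, chr4:109218208-109218286, plus strand: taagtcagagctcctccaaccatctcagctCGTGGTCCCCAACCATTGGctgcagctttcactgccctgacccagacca
Derl3, chr10:75893212-75893290, plus strand: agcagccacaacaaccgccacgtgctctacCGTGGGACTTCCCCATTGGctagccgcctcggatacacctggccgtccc
Herpud1 (ATF4-type site, then ERSE-II), chr8:94386287-94386417, plus strand: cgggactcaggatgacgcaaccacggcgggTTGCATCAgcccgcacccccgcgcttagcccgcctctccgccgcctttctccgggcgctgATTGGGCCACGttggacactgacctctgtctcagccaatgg
Chac1 (ATF4-type site), chr2:119351019-119351086, plus strand: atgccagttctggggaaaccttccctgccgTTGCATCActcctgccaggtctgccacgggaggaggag

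The Calr element lies before the start that the quantified transcripts use: 97.5% of Calr reads were in transcripts beginning within 100 bases of that RefSeq start. The Calr4 element does not. It lies before a RefSeq start 16072 bases from the nearest start of a quantified Calr4 transcript. No quantified Calr4 transcript begins within 100 bases of that start, so these values cannot show whether it is used. The other 9 genes with ERSE each had a quantified transcript starting within 65 bases of the RefSeq start with the match. The 10 genes with ERSE had a median level of 207 TPM, and the 26 without it 50.9 TPM. Their median log2 differences between genotypes were -0.0046 and 0.06. The members were partly known for these elements when they were listed.

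The libraries held 60969508 to 71670766 estimated reads. Levels of different genes are compared in TPM, a transcript abundance corrected for length, and levels of 1 gene between mice in CPM, the reads of a gene relative to the library's reads, scaled between libraries by TMM (the trimmed mean of M values). Cnpy1 stood at 280.0, 303 and 325 CPM in the wild types and 67.2, 77.6 and 76.3 in the knockouts (log2 fold change -2.04, SE 0.08, edgeR adjusted p = 1.75e-05). Of 16679 genes tested, 127 (0.761%) passed an adjusted p of 0.05 and are described as called, 13 higher and 114 lower in the knockouts. The tissue label was checked against its markers: Omp and Trpc2, of vomeronasal neurons, stood at 1051 to 1264 and 284 to 339.8 CPM in the wild types. Lists of cell type markers moved with genotype. The summed level of 7 basal neuron markers was 959, 995 and 960.2 CPM in the wild types and 725, 743 and 684 in the knockouts, with 3 of 7 called lower (Gnao1, Vmn2r1 and Vmn2r7) and 7 of 7 below 0. The sum of 7 markers of mature vomeronasal neurons was 2896, 3039 and 2817 CPM against 2403, 2304 and 2384 (Stom called lower). Of these 7 markers 5 lay below 0, and Ano1 and Gng13 lay above. The sum of 6 apical markers was 1199.9, 1138 and 1143 CPM against 1321, 1251 and 1269 (0 called), with 5 above 0 and Pde4a below. Of 8 progenitor genes all were above 0 and Top2a was called higher. The lists for glands, supporting and respiratory epithelium, plasma and B cells, other immune cells, vascular cells and main olfactory neurons held 0 called genes by edgeR. In such bulk libraries fewer cells of a type and less RNA per cell cannot be told apart.

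All 40 genes were detected at a level that passed the filter on low counts. The highest by TPM was Hspa5, which encodes the Hsp70 chaperone BiP, with a mean of 691 TPM over the 6 mice (rank 122 of 22894 genes with a mean TPM above 0). It was followed by Calr (546 TPM), the disulfide isomerase gene Pdia3 (518), Manf (480), Hsp90b1 (459) and P4hb (446). Thus 15 of the 40 were among the 1000 highest genes, and 0 among the highest 100. The lowest were Uggt2 (5.11 TPM, rank 10861), Chac1 (7.17), Trib3 (10.05) and the IRE1 gene Ern1 (10.3). By role, the folding genes summed to 4952 ± 303 TPM in the wild types and 4698 ± 470.3 in the knockouts (SD, n = 3 each), the ERAD genes to 783 ± 2.41 and 773 ± 37.3, and the stress genes to 431 ± 17.9 and 439 ± 47.1. All 3 sums overlapped between genotypes.

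**Figure D1:**
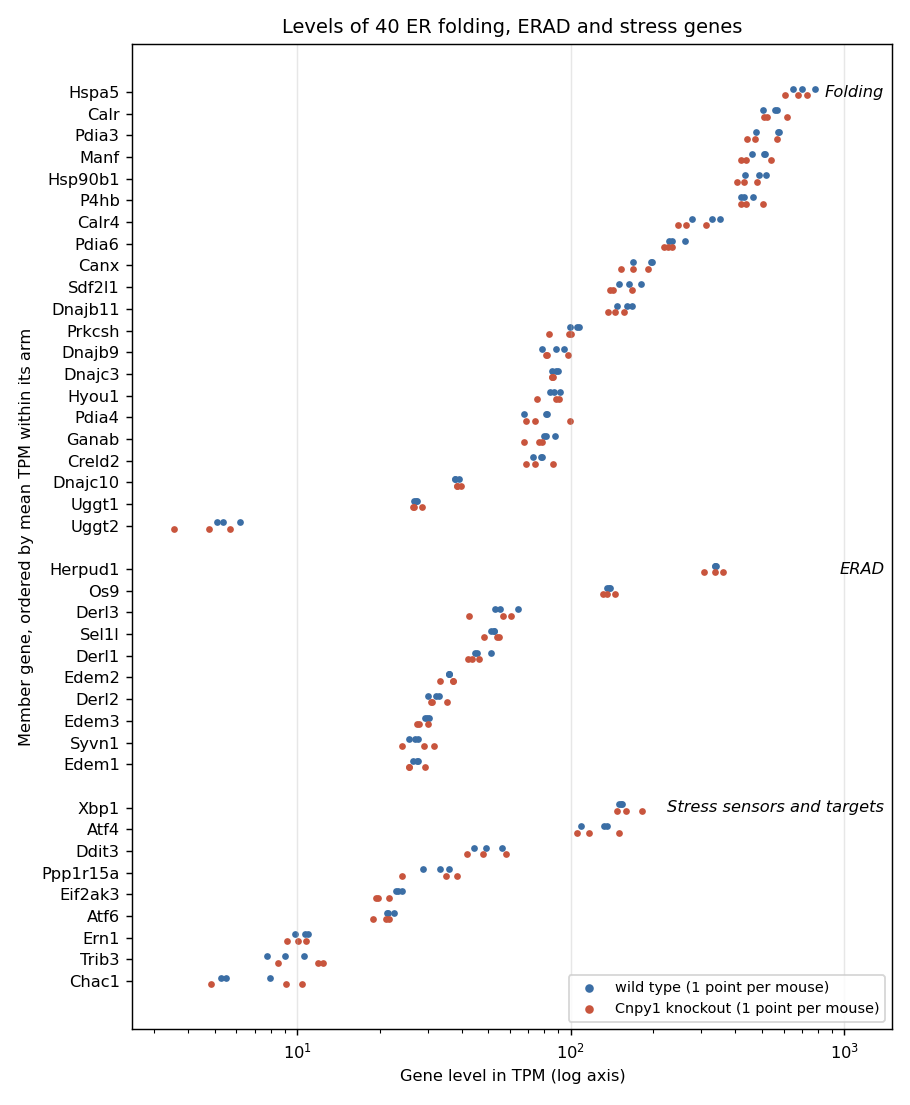
Level of each of the 40 genes in TPM on a log axis, 1 point per mouse (blue, wild type; red, knockout), ordered by mean level within folding, ERAD and stress genes. Single points run from 3.53 TPM (Uggt2, knockout mouse 1) to 779.9 TPM (Hspa5, wild-type mouse 2), and the spread between genes is far wider than that between the mice of any 1 gene.

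No member was called between genotypes. By edgeR 0 of 40 passed the adjusted threshold in either direction (0.761% of all genes did, 0.0779% higher and 0.683% lower), and DESeq2 and limma-voom likewise called 0. At an unadjusted p under 0.05 there were 2 by edgeR, Trib3 and Calr4, where 10.5% of all genes reached that level, and 2 by each of the other tools. Differences ran from -0.14 (Calr4) to 0.48 (Chac1) on the log2 scale. There were 25 members above 0 and 15 below, with a median of 0.04 beside 0.0058 over all genes, 52.3% of which were above 0. On the TPM scale the median of the members was -0.03, where that of all genes was -0.07 and 26.6% of them lay above 0, and 14 of the 25 members above 0 in CPM lay below 0 in TPM. The intervals bound these differences. The 95% interval of the log2 fold change lay between -0.5 and 0.5 for 38 members (all but Trib3 and Chac1) and between -0.25 and 0.25 for 24. The median half-width was 0.17, beside 0.20 over all genes tested. Libraries without overlap between genotypes occurred for 1 of 40 members (Calr4, knockouts lower). Among all genes 8.95% did so with knockouts lower and 7.22% with knockouts higher. Summed over the 40 genes, the level was 10536, 10406 and 9811 CPM in the wild types and 10272, 10608 and 10165 in the knockouts.

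**Figure D2:**
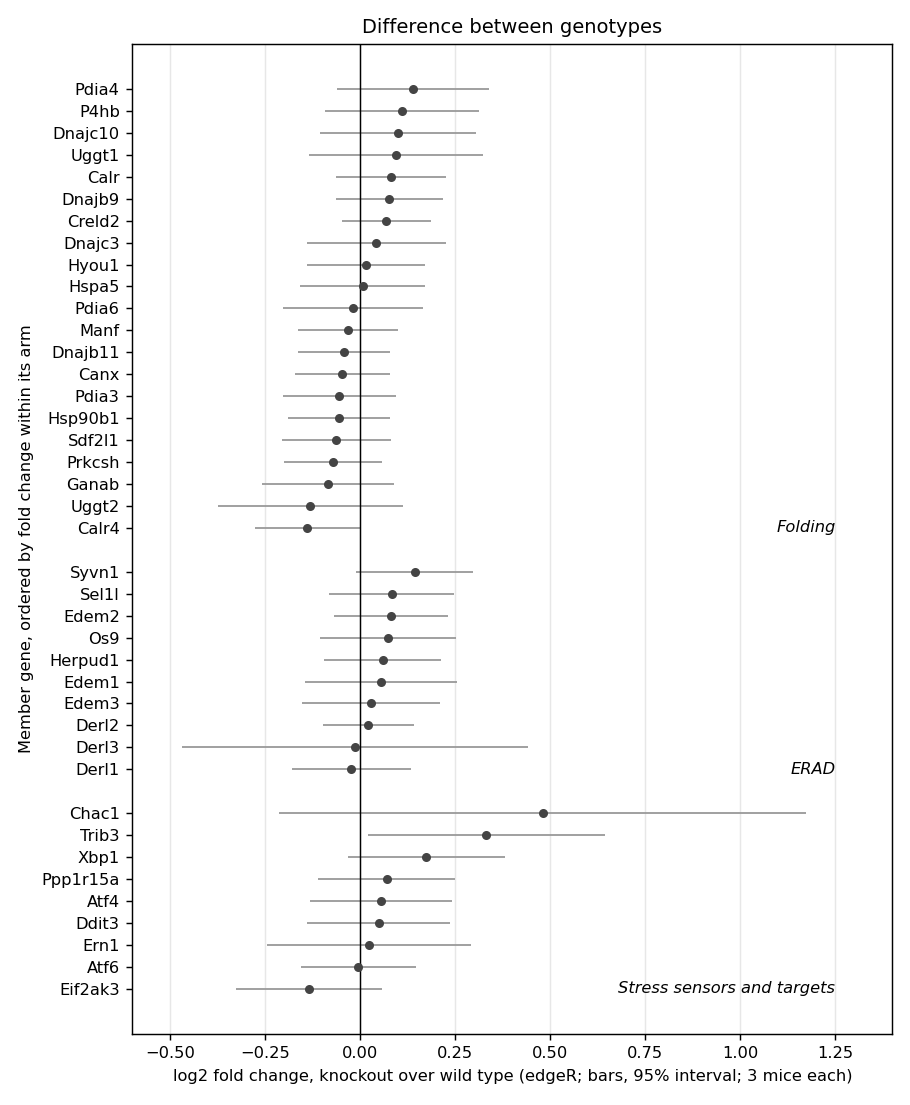
Log2 fold change of each member, knockout over wild type (point), with its 95% interval from edgeR (bar, 3 mice per genotype), ordered by size within each role. Only the intervals of Calr4 (below 0) and Trib3 (above 0) leave out 0, Calr4 by 0.0012, and Derl3, Trib3 and Chac1 have the widest bars.

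Among the 21 folding genes 10 lay above 0 and 11 below, with a median log2 difference of -0.02 and a summed level of 8073 ± 296 CPM in the wild types and 8075 ± 188 in the knockouts (SD, n = 3 each). On the TPM scale 5 lay above 0 and 16 below (median -0.09). With 1 library left out the median ran from -0.05 (without wild-type mouse 3) to 0.02 (without wild-type mouse 1), and in males only it was 0.03. Gene positions are those of GENCODE M21 on GRCm38. The 10 Hsp70- and Hsp90-type chaperones and co-chaperones spanned -0.06 to 0.10. Hspa5 (ENSMUSG00000026864.13, chromosome 2, positions 34771970 to 34777547, plus strand) had 1145, 1161 and 1006 CPM in the wild types and 1080.1, 1112 and 1134 in the knockouts. The knockouts lay inside the range of the wild types, and the log2 fold change was 0.0057 (SE 0.07, 95% interval -0.16 to 0.17). Hsp90b1, the gene of the ER Hsp90 GRP94, had 941, 1004 and 938 CPM in the wild types and 905, 942 and 926 in the knockouts. The groups overlapped, at -0.06 (interval -0.19 to 0.08, edgeR adjusted p = 0.812). Of the distinct short sequences (31-mers) of Hsp90b1, 8.25% also occur in the gene 1810014B01Rik. Of the Hspa5 31-mers 99.95% occur in no other gene quantified.

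Manf, which encodes a secreted ER protein that binds BiP, had 231, 228 and 226 CPM in the wild types and 213, 220.4 and 237 in the knockouts. The wild types had an SD of 2.25 CPM, and the knockouts lay on both sides of them. Creld2, which encodes a disulfide isomerase-like protein of the ER, had 69.8, 67.7 and 66.4 CPM against 69.0, 70.5 and 74.0. Its groups overlapped at a log2 fold change of 0.07 (SE 0.05, unadjusted p = 0.222, adjusted p = 0.722 by edgeR), the smallest p of these 10 genes. Dnajc10, whose product ERdj5 joins an Hsp40 domain to disulfide reductase activity, had 119, 111 and 104 CPM in the wild types and 117, 134 and 107 in the knockouts. Knockout mouse 2 was the highest and wild-type mouse 3 the lowest, with a log2 fold change of 0.10 (SE 0.09). Sdf2l1, a partner of ER Hsp40 proteins, had 112, 121 and 108 CPM against 104, 111 and 112. Its difference of -0.06 (SE 0.06) was the lowest of these 10 genes, and its groups overlapped. Dnajb9 encodes ERdj4, a co-chaperone of BiP that is a target of spliced XBP1. It had 147, 148 and 155 CPM in the wild types and 148, 164 and 162 in the knockouts, at 0.08 (interval -0.07 to 0.22). The groups overlapped, and 10.8% of its 31-mers are shared with Gm6568. The other 3, Hyou1, Dnajb11 and Dnajc3, lay between -0.04 (Dnajb11) and 0.04 (Dnajc3).

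Of the 7 genes of the lectin chaperone cycle 5 lay below 0, with a median of -0.07. Calr4 (ENSMUSG00000028558.14, chromosome 4, positions 109234485 to 109254571, plus strand) was the one member whose libraries did not overlap, with 347, 370.0 and 385 CPM in the wild types and 324, 333 and 344 in the knockouts. The highest knockout was 344 CPM and the lowest wild type 347. The log2 fold change was -0.14 (SE 0.06, 95% interval -0.28 to -0.0012), which did not pass the adjusted threshold (unadjusted p = 0.0484, adjusted p = 0.468 by edgeR). The unadjusted p ran from 0.0374 to 0.151 when 1 library was left out. Its direction was the same in all 18 alternative fits, and its size ran from -0.11 without wild-type mouse 3 to -0.22 on the TPM scale. In TPM it had 278, 328 and 350.0 against 264, 247 and 312, where knockout mouse 3 overlapped the wild types. The basal neuron markers, whose cells carry V2R receptors, were lower in the same libraries (684 to 743 CPM in the knockouts against 959 to 995), and their part in the Calr4 values was not tested.

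Calr (ENSMUSG00000003814.8, chromosome 8, positions 84841850 to 84846934, minus strand) is the gene of calreticulin. It had 826, 808 and 749 CPM in the wild types and 815, 871 and 833 in the knockouts. Its groups overlapped, with knockout mice 2 and 3 above every wild type, and the log2 fold change was 0.08 (interval -0.06 to 0.22, adjusted p = 0.738). Per length, Calr4 reached 55.1%, 58.8% and 61.9% of the Calr level (TPM) in the wild types and 50.7%, 48.3% and 50.5% in the knockouts. Every knockout was below every wild type. The means were 58.6% ± 3.40 and 49.8% ± 1.30 (SD, n = 3 each), a log2 difference of -0.23, with a two-sided exact permutation p = 0.1, the smallest that 3 against 3 mice can give. On estimated reads instead of TPM the shares were 46.4% ± 4.72 and 39.8% ± 1.55 (SD, n = 3 each), also without overlap and at a log2 difference of -0.22. That difference was -0.14 without wild-type mouse 3. Of the Calr4 31-mers 100% occur in no other gene quantified, and of the Calr 31-mers 98.1%. A retained-intron transcript took 0.114% to 5.52% of Calr reads, the most in wild-type mouse 3 and knockout mouse 3.

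**Figure D3:**
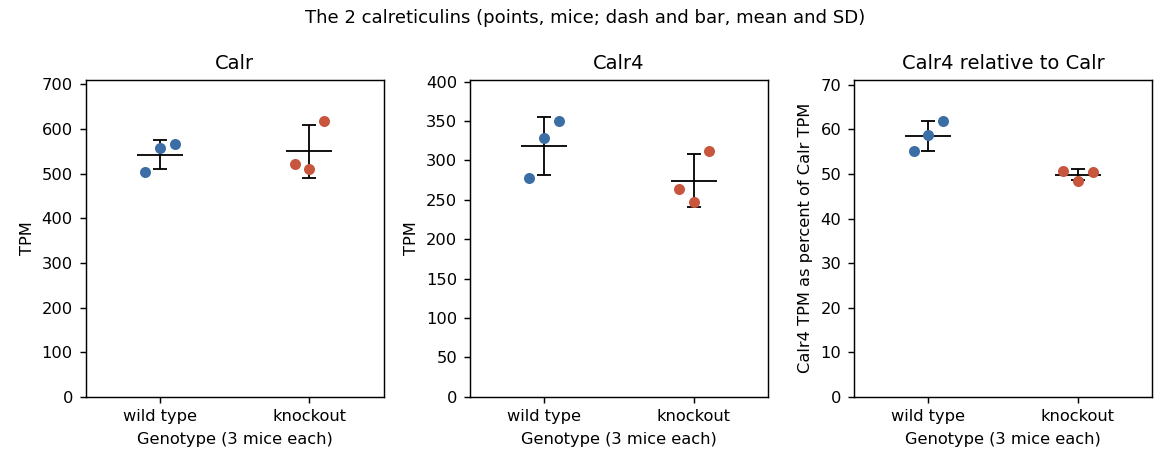
Calr TPM, Calr4 TPM and Calr4 as a percentage of Calr (TPM) in each mouse, with mean and SD of 3 mice per genotype as dash and bar; axes start at 0. The levels of each gene overlap between genotypes in TPM, while the percentages do not, with wild types at 55.1% to 61.9% and knockouts at 48.3% to 50.7%.

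Canx, which encodes the membrane-bound lectin chaperone calnexin, had 451, 468 and 453 CPM in the wild types and 435, 459 and 433 in the knockouts. The groups overlapped, at -0.05 (SE 0.05). Uggt1 encodes the glucosyltransferase that returns misfolded glycoproteins to the lectin chaperones. It had 152, 141 and 127 CPM against 159, 160.5 and 129, with knockout mouse 3 beside the wild types and the other knockouts above them (0.09, SE 0.10). Its paralogue Uggt2 was far lower, at 9.35, 9.21 and 10.2 CPM against 7.62, 9.61 and 9.06 (-0.13, SE 0.11), and its groups overlapped. Ganab and Prkcsh, the subunits of glucosidase II, lay at -0.09 and -0.07, also with overlap.

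The 4 disulfide isomerases lay on both sides of 0 (2 above and 2 below), with a median of 0.04. With 1 library left out this median ran from -0.0017 (without wild-type mouse 3) to 0.06 (without wild-type mouse 2). On the TPM scale it was -0.02. Pdia3, which works with the lectin chaperones, had 1012, 1089.9 and 1073 CPM in the wild types and 970.2, 1009.5 and 1076 in the knockouts. The groups overlapped at -0.06 (SE 0.06). P4hb, the gene of protein disulfide isomerase, had 913, 836 and 756 CPM against 894, 975 and 834, at 0.11 (interval -0.09 to 0.31), and wild-type mouse 1 lay above 2 of the knockouts. Pdia6, an isomerase that also acts on the sensors IRE1 and PERK, had 383, 383 and 328 CPM against 359.6, 383 and 337. The ranges were nearly the same (-0.02, SE 0.08). Pdia4 had 123, 133 and 130.5 CPM in the wild types and 131, 133 and 161 in the knockouts. Here knockout mouse 3 alone stood apart, at 161 CPM, and the difference of 0.14 (SE 0.09, adjusted p = 0.650 by edgeR) was the highest above 0 among the folding genes.

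Of the 10 ERAD genes 8 lay above 0 and 2 below, with a median of 0.06, a range of -0.02 to 0.14 and summed levels of 1472 ± 98.1 CPM in the wild types and 1531 ± 84.9 in the knockouts (SD, n = 3 each). The ranges of these sums overlapped. On the TPM scale the tally turned to 3 above 0 and 7 below (median -0.0094). With 1 library left out the median ran from 0.02 (without knockout mouse 2) to 0.12 (without wild-type mouse 1). Syvn1 encodes HRD1, the membrane ubiquitin ligase at the core of the ERAD complex. It had 66.0, 56.3 and 59.4 CPM in the wild types and 69.2, 64.5 and 66.9 in the knockouts. Wild-type mouse 1 overlapped the knockouts, and the log2 fold change was 0.14 (interval -0.013 to 0.30, unadjusted p = 0.0673, adjusted p = 0.517 by edgeR). Sel1l, its partner and adaptor, lay at 0.08 (SE 0.07).

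Herpud1, a membrane protein gene that is strongly induced by ER stress and assists the HRD1 complex, had 465, 416 and 404 CPM in the wild types and 448, 452 and 438 in the knockouts. The knockouts lay inside the wild-type range (0.06, interval -0.10 to 0.21). Os9 encodes a lectin that hands glycoproteins to this complex, and it had 261, 239 and 233 CPM against 269, 269.6 and 232 (0.07, SE 0.08). Derl1, of the derlin channel proteins, had 110.3, 113 and 99.0 CPM against 104, 111 and 101 (-0.02, SE 0.07). Both overlapped between genotypes. The remaining Derl2, Edem1, Edem2 and Edem3, the last 3 encoding proteins that trim mannose from glycans of misfolded proteins, lay between 0.02 (Derl2) and 0.08 (Edem2).

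Derl3 (ENSMUSG00000009092.5, chromosome 10, positions 75893413 to 75895941, plus strand), a derlin that is prominent in secretory cells, varied more between mice than any other ERAD gene. It had 56.3, 41.7 and 41.3 CPM in the wild types and 48.4, 56.9 and 32.6 in the knockouts, a 1.75-fold range over the 6 mice. Its highest and lowest libraries were both knockouts. The log2 fold change was -0.015 with a wide interval of -0.47 to 0.44, so differences within these limits are not excluded. The 9 gland and lipocalin genes, led by Obp2a and with Bpifb9b at 0 in all wild types, summed to 182897, 135454 and 121981 CPM in the wild types and 179305, 215063 and 128694 in the knockouts. The 3 libraries highest in Derl3 (knockout mouse 2, wild-type mouse 1, knockout mouse 1) were also the 3 highest in that sum. The 9 plasma and B cell genes summed to 77.5, 85.7 and 75.5 CPM in the wild types and 85.6, 84.2 and 88.9 in the knockouts, most of it Sdc1 (62.6 to 75.0) and Ighm (8.99 to 10.7). Of the rest, Jchain was low but higher in every knockout (0.362, 0.498 and 0.671 against 1.20, 1.28 and 0.833 CPM, adjusted p = 0.220 by edgeR), and Mzb1 stood at 0.242 to 0.402. The part of gland and plasma cell content in the Derl3 values was not tested.

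**Figure D4:**
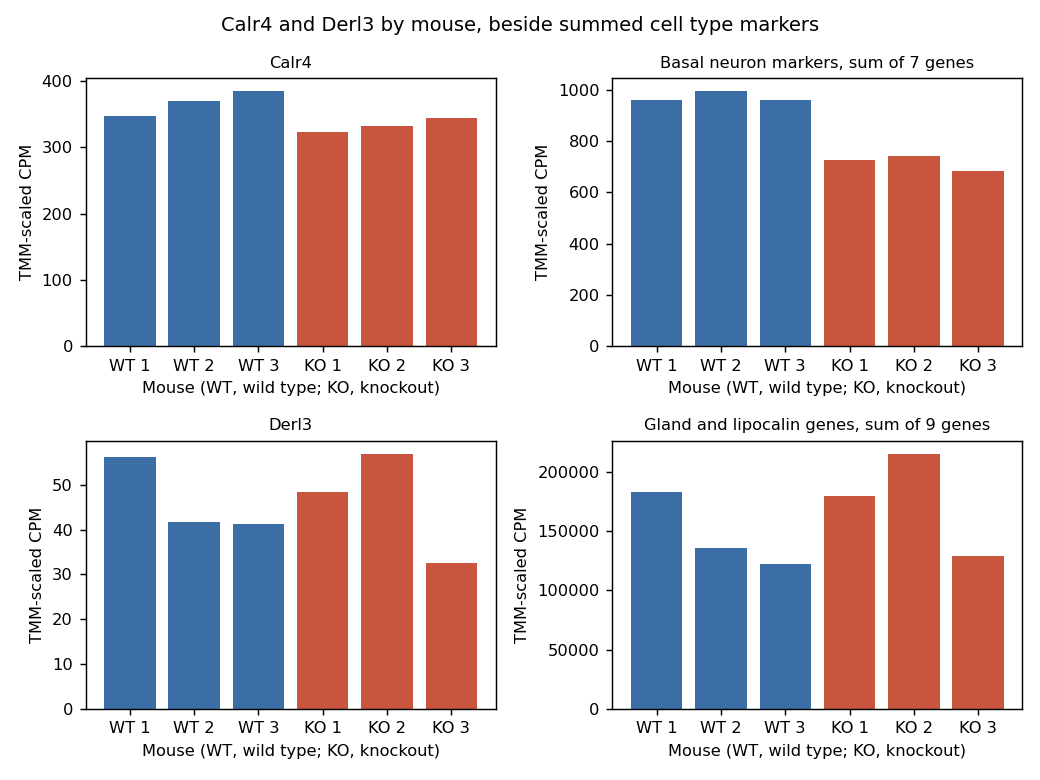
TMM-scaled CPM in each mouse (WT, wild type; KO, knockout) of Calr4, of 7 summed basal neuron markers, of Derl3 and of 9 summed gland and lipocalin genes; bars start at 0. Calr4 and the basal markers are lower in all 3 knockouts, while Derl3 and the gland sum differ between mice within each genotype.

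Of the 9 stress sensors and targets 7 lay above 0 and 2 below, with a median of 0.05 and summed levels of 706 ± 25.3 CPM in the wild types and 742 ± 34.6 in the knockouts (SD, n = 3 each). On the TPM scale the tally turned to 3 above 0 and 6 below (median -0.03). Of the 3 sensors 1 lay above 0 and 2 below. Eif2ak3, the PERK gene, had 82.4, 77.0 and 71.6 CPM in the wild types and 74.2, 73.8 and 62.3 in the knockouts. Knockout mouse 3 was the lowest and the other knockouts lay within the wild-type range, at a log2 fold change of -0.14 (interval -0.33 to 0.06, unadjusted p = 0.142). Leaving out 1 library gave -0.19 (without wild-type mouse 3) to -0.06 (without knockout mouse 3). Ern1 (IRE1) and Atf6 lay at 0.02 (SE 0.12) and -0.0056 (SE 0.07).

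Xbp1 (ENSMUSG00000020484.18, chromosome 11, positions 5520659 to 5525893, plus strand) encodes the transcription factor whose mRNA IRE1 splices. It had 238, 215 and 207 CPM in the wild types and 277, 246 and 223 in the knockouts. Knockout mice 1 and 2 lay above every wild type and knockout mouse 3 among them, at 0.17 (SE 0.09, interval -0.03 to 0.38, unadjusted p = 0.0887, adjusted p = 0.560 by edgeR). Leaving out 1 library gave 0.09 (without knockout mouse 1) to 0.25 (without knockout mouse 3). The transcript Xbp1-201 took 98.7% ± 0.15 of Xbp1 reads in the wild types and 98.7% ± 0.30 in the knockouts (SD, n = 3 each). None of the Xbp1 transcripts quantified lacks the bases that IRE1 removes, so the spliced form was not analysed here and these levels do not show IRE1 activity.

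On the PERK branch, Atf4 had 137, 149 and 151 CPM in the wild types and 143, 142 and 169 in the knockouts, with knockout mouse 3 the highest (0.05, interval -0.13 to 0.24). ATF4 is controlled mainly in translation, which RNA levels do not show. Ddit3, the gene of the pro-apoptotic factor CHOP, had 24.8, 28.0 and 24.5 CPM against 25.9, 24.9 and 29.0, with overlap (0.05, interval -0.14 to 0.24). Ppp1r15a, which encodes GADD34, the factor that brings phosphatase to eIF2-alpha, lay at 0.07 (SE 0.08).

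The 2 largest differences of the list were in targets further down this branch, both at low levels. Trib3 (ENSMUSG00000032715.9, chromosome 2, positions 152337422 to 152344032, minus strand), a pseudokinase gene, had 13.3, 14.3 and 10.3 CPM in the wild types and 17.4, 13.8 and 16.4 in the knockouts. Knockout mice 1 and 3 lay above every wild type and knockout mouse 2 among them. The log2 fold change was 0.33 (SE 0.14, interval 0.02 to 0.64), with an unadjusted p = 0.0402 and an adjusted p = 0.443 by edgeR. Leaving out 1 library gave 0.20 (without wild-type mouse 3) to 0.43 (without wild-type mouse 2), and the unadjusted p rose to 0.111 without wild-type mouse 3 and 0.133 without knockout mouse 1. Chac1 (ENSMUSG00000027313.3, chromosome 2, positions 119351229 to 119354381, plus strand), which encodes an enzyme that degrades glutathione, had 6.54, 8.42 and 5.55 CPM in the wild types and 12.0, 11.5 and 5.12 in the knockouts. The 2 male knockouts were the highest of all, and the female knockout, mouse 3, was the lowest. Over all mice the log2 fold change was 0.48 with an interval of -0.21 to 1.17 (adjusted p = 0.652 by edgeR). Leaving out 1 library gave 0.28 (without knockout mouse 1) to 0.78 (without knockout mouse 3).

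In the 4 males alone, 2 per genotype, Chac1 passed the threshold, with a log2 fold change of 0.96 and an edgeR adjusted p = 0.0304. In that fit 76 of 16778 genes tested were called. It was the only call of a member in any of the 18 alternative fits. With 1 female per genotype the reverse order of the females (8.42 CPM in the wild type, 5.12 in the knockout) has no replicate. An interaction of genotype with sex, fitted after these values had been seen, did not pass for Chac1 (adjusted p = 0.240 by edgeR). It compares arms of 1 female, so no difference between the sexes is read from it. The Chac1 promoter stretch printed above holds the ATF4-type letters 193 bases before its start.

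The same question was put to 126 other genes of the ER pathway, listed by function. Of these 124 were tested and 0 were called by edgeR, with 17 at an unadjusted p under 0.05 (10.5% among all genes), 74 above 0 and 50 below, and a median of 0.02. The tally turned to 35 above and 87 below on the TPM scale, to 54 and 70 scaled by library totals alone, and to 59 and 65 without wild-type mouse 3. DESeq2 called 2 of them, Ern2 and Nupr1, where it called 403 (2.3%) of the 17519 genes to which it gave an adjusted p. Libraries without overlap occurred for 12 genes with knockouts higher and 8 with knockouts lower, beside 7.22% and 8.95% of all genes, so single cases without overlap are given as values only. The 16 genes of the translocon and signal peptidase, which bring new proteins into the ER, had a median of 0.02, and the 12 of oligosaccharyltransferase, which attaches glycans, -0.01. The 19 tested disulfide isomerases and oxidases had a median of 0.02, the 17 further chaperones and prolyl isomerases 0.01 and the 22 further ERAD genes 0.03. The 15 further stress sensors and processing genes and the 23 further ATF4 and CHOP targets both had a median of 0.06.

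From each of these 7 lists the gene with the smallest p was taken, and 2 of these 7 genes lay below 0. Ern2, an IRE1 homologue of mucus-secreting epithelia, had 0.362, 0.129 and 0.282 CPM in the wild types and 1.20, 0.531 and 1.70 in the knockouts, a log2 fold change of 2.14 (SE 0.50, adjusted p = 0.146 by edgeR, 0.00228 by DESeq2). Agr2, a disulfide isomerase of mucus-secreting cells, had 51.6, 40.2 and 54.3 CPM against 59.2, 60.3 and 88.8 (0.51, SE 0.17, adjusted p = 0.337). In both genes every knockout was above every wild type. The mucin gene Muc5b showed the same order, at 40.9, 18.1 and 33.6 CPM against 184, 59.9 and 109.7 (adjusted p = 0.115 by edgeR). Muc5b had the smallest p of the gland and lipocalin genes and was named after its values were seen. Of the 8 of those genes tested, 2 had every knockout above every wild type and 1 had every knockout below. The summed level of that list overlapped between genotypes. The part of Muc5b-expressing cells in the Ern2 and Agr2 values was not tested.

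Nupr1, a stress-induced ATF4 target, had 239.9, 221 and 215 CPM in the wild types and 266, 271 and 340.4 in the knockouts, again without overlap (0.38, SE 0.10, adjusted p = 0.217 by edgeR, 0.00691 by DESeq2). Rnf185, an ERAD ubiquitin ligase gene, had 47.4, 48.0 and 43.3 CPM against 54.7, 52.0 and 52.0 (0.19, SE 0.06), and Hspa13, of the Hsp70 family, 44.6, 44.0 and 38.6 against 49.2, 53.3 and 45.8 (0.22, SE 0.08). Both were higher in every knockout. Tusc3, an oligosaccharyltransferase subunit gene, had 122, 131 and 124 CPM against 109, 112 and 115 (-0.17, SE 0.05) and was lower in every knockout. Spcs3, of signal peptidase, overlapped at 252, 263 and 265 against 219.6, 255 and 236 CPM (-0.13, SE 0.07).

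**Figure D5:**
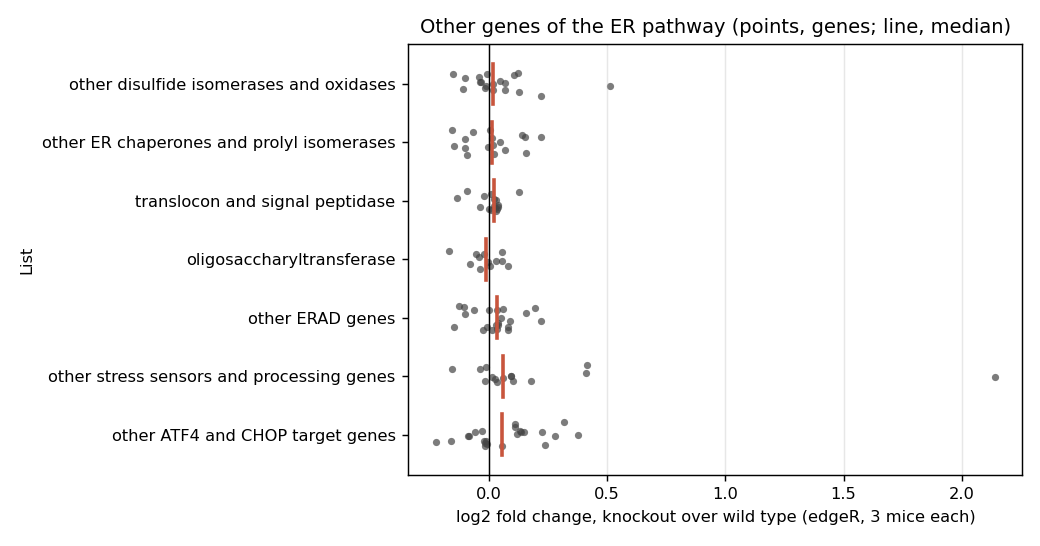
Log2 fold change, knockout over wild type (edgeR, 3 mice per genotype), of 124 other genes of the ER pathway in 7 functional lists; each point is a gene, spread vertically for visibility, and the red line is the list's median. Medians lie between -0.01 and 0.06, and the point furthest to the right is Ern2 at 2.14.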

How the data were processed

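Poly(A) RNA of the vomeronasal organs of 6 mice was sequenced, 1 directional library per mouse from both organs, per the labels' protocols. The authors deposited an estimated count and a TPM value per transcript with an effective length, per the file headers. Trim Galore 0.6.6, Salmon 1.9.0, DESeq2 and the builds mm10 and GRCm38 are named in the submitters' processing notes, without roles.

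The 117081 transcripts were joined to GENCODE M21 (GRCm38). The 1139 without a match held 0.304% of reads and were left out. Per gene (35450 genes) the transcripts' estimated counts were added up and rounded, since the test had been designed for whole counts, and TPM was added up. Library totals were 60969508 to 71670766 reads, with a common biological coefficient of variation of 12.8%. Every library was 1 replicate, from 1 mouse.

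Genotypes were compared by edgeR 4.0.16 (limma 3.58.1, R 4.3.3) with its quasi-likelihood F test on genotype alone. Scaling was by TMM, low genes were removed by filterByExpr, and p-values were adjusted by Benjamini-Hochberg over 16679 genes (threshold 0.05). The script was tested on simulated data. The SE is the size of the log2 fold change divided by the square root of F. Alternatives were other scalings, no filter, DESeq2 1.42.0, limma-voom, sex as a term, the replicate number as a block, males only, an effective length offset, limma on log2(TPM + 0.5) or log2(TPM + 0.1) for genes with a TPM of 0.5 or more in 3 libraries, and each library left out. The interaction with sex was added after the data were seen. Groups of 3 were too small for a check on outlying samples.

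Members and lists were chosen with earlier results of these data known. Values per mouse are given for Calr, Calr4, Xbp1, Ddit3, Atf4, Derl3 and Dnajb9, for the 3 highest members of each list by TPM, and for those with the largest difference in each direction or the smallest p, as well as for the smallest p of each pathway list. Other members were given more briefly, and Muc5b was named after its values were seen. Ddit3 has 2 gene identifiers, of which the one with reads was used. Of the pathway genes Hm13 was not matched by name and Erp27 was too low to test. Promoters are those of RefSeq (GRCm38.p6). Python 3.11.15 with numpy 2.4.6, pandas 2.3.3 and matplotlib 3.10.9 was used.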

Additional observations from a re-analysis of the deposited data

How the results depend on the processing

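None of the 40 members was called under any of 16 alternative edgeR, DESeq2 and limma-voom fits except in males only, where 1 was (Chac1). Over all genes the calls were 127, against 403 by DESeq2, 76 in males only and 69 to 96 when 1 library was left out, the latter with fewer samples. The other pathway genes had 0 calls, against 2 by DESeq2 and 1 (Ern2) with the replicate block. The replicate numbers were not used as pairs in the main fit. Deviations from the group means correlated over genes at 0.15, -0.09 and 0.23 for same-numbered mice, and at -0.29 to 0.17 for different-numbered mice. With 3 mice per genotype these correlations cannot show whether the numbers pair the samples. The replicate block gave 154 calls over all genes, 0 members and a median member difference of 0.032. That median, 0.035, became -0.033 on log2(TPM + 0.5) and on log2(TPM + 0.1), and the cause was not tested. It was 0.0013 scaled by library totals alone and 0.0042 (without knockout mouse 2) to 0.069 (without wild-type mouse 1) when 1 library was left out, with 0.0079 without wild-type mouse 3. The Calr4 to Calr log2 ratio in TPM differed by -0.28 to -0.19 when 1 library was left out, and that in estimated reads, tried only after seeing the data, by -0.29 to -0.14, the smallest without wild-type mouse 3. Cnpy1 differed by -2.09 to -1.72 over its alternatives. Under the 18 alternatives 20 members kept their sign and 20 did not, none of them called in the fit in question. With 1 library left out, 8 to 11 folding, 6 to 10 ERAD and 6 to 8 stress genes lay above 0. On both TPM scales Hspa5 was -0.084, Hyou1 -0.0474 and -0.0476, Dnajb9 -1.7e-07 and -3.5e-06, Dnajc3 -0.0374 and -0.0376, Creld2 -0.0080 and -0.0081, Herpud1 -0.014, Edem1 -0.024, Edem2 -0.00027 and -0.00030, Edem3 -0.071 and -0.072, Os9 -0.0045, Atf4 -0.026, Ern1 -0.069 and -0.071, Ddit3 -0.028 and Ppp1r15a -0.0215 and -0.0221. Scaled by library totals alone, Hspa5 was -0.023, Hyou1 -0.014, Derl2 -0.010, Edem3 -0.0053 and Ern1 -0.011, and with effective length as an offset Hspa5 was -0.012. In males only, Pdia6 was 0.062, Derl1 0.044, Derl2 -0.0066, Derl3 0.11, Atf4 -0.017, Atf6 0.012 and Ppp1r15a -0.038. When 1 library was left out, the ranges that crossed 0 were -0.057 to 0.043 for Hspa5, -0.042 to 0.066 for Hyou1, -0.030 to 0.11 for Dnajc3, -0.077 to 0.0011 for Manf, -0.090 to 0.026 for Pdia6, -0.079 to 0.012 for Derl1, -0.0064 to 0.055 for Derl2, -0.20 to 0.18 for Derl3, -0.011 to 0.13 for Edem1, -0.017 to 0.10 for Edem3, -0.033 to 0.099 for Atf4, -0.040 to 0.042 for Atf6, -0.062 to 0.13 for Ern1 and -0.020 to 0.11 for Ddit3. The other 26 members kept their sign, but the value of 25 of them, all but Calr4, moved by over 1.5 times. Among these were Uggt2 (-0.20 to -0.04), Pdia4 (0.04 to 0.19), Dnajc10 (0.0090 to 0.17) and Syvn1 (0.09 to 0.21). The widest of the ranges that crossed 0 was that of Derl3, and the causes of the changes of sign were not tested. With 3 mice per genotype a two-sided exact permutation p cannot fall below 0.1.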

Other observations

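Each member's reads were also divided among its transcripts, and 83 transcripts of the 40 genes took at least 1% of their gene's reads on average in 1 or both genotypes. In 17 genes a single transcript did so. The shares did not overlap between genotypes for 10 transcripts of 8 genes, 4 higher and 6 lower in the knockouts, and these differences were not tested. That is 12.0% of the 83, and over all genes tested 7.91% of 43604 such transcripts did not overlap, and nothing particular to these genes is read from the count. Values of single transcripts are given as a description. In Ganab, the catalytic subunit of glucosidase II, the transcript Ganab-202 took 93.0%, 92.5% and 93.6% of reads in the wild types and 89.7%, 87.8% and 90.3% in the knockouts. Ganab-201 (3860 bases long, against 3788) took 6.71% ± 0.57 and 10.4% ± 1.36 (SD, n = 3 each). In Syvn1, the transcript Syvn1-203 took 24.9%, 16.5% and 23.4% of reads in the wild types and 13.5%, 15.1% and 4.16% in the knockouts, the widest spread of the 10. In Edem3, the transcript Edem3-201 rested at 91.7% ± 0.34 and 93.2% ± 0.32 (SD, n = 3 each), and in Derl2 the transcript Derl2-202 at 3.56% ± 0.70 and 5.84% ± 0.68 (SD, n = 3 each). The rest were Edem3-204 and transcripts of Canx, Ern1, Manf and Pdia6, and their means differed by 0.40 to 1.58 percentage points. Calr4 was divided among 3 coding transcripts, Calr4-203 (49.6% of reads in the wild types), Calr4-202 (32.8%) and Calr4-204 (16.8%), and the shares of all 3 overlapped between genotypes.

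The summed TPM of the 40 genes was 5809, 6434 and 6254 in the wild types and 5827, 5417 and 6484 in the knockouts. The summed TPM of 9 gland and lipocalin genes in the same mice was 377207, 314145 and 283766, and 365369.7, 420723 and 301457. The 3 mice with the lowest member sums were the 3 with the highest gland sums. TPM values share 1 total per library, and the part of the gland genes in the member sums was not tested. The summed CPM of the members, scaled by TMM, spanned 9811 to 10608.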
